A study of Mus musculus with 1507 samples.

Results

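RamDA-seq libraries made from 10 pg of total RNA, about the amount in a single cell, were compared with rRNA-depleted total RNA-seq (rdRNA-seq) libraries made from 1 µg of RNA. All the RNA came from undifferentiated 5G6GR mouse embryonic stem (ES) cells. The comparison took 6 of the 1507 libraries in the series, 3 of each kind, and counts were summed over the transcripts of each gene. Its question was which RNA classes and genes are over- or under-represented at the input of a single cell. 5G6GR cells carry a Gata6 fusion protein that dexamethasone switches on, and the cells used here were kept without dexamethasone, in serum with leukemia inhibitory factor, puromycin and blasticidin. Both groups were of all cell cycle phases, from purified total RNA, diluted to 10 pg for RamDA-seq. For rdRNA-seq, rRNA was removed with a GeneRead kit, stranded libraries were made with a NEBNext Ultra Directional kit, and paired-end reads were sequenced on a HiSeq 2500. For RamDA-seq, no rRNA was removed. First strands were primed with oligo-dT and not-so-random primers (NSRs), libraries were made with Nextera XT, and single-end reads were sequenced on a NextSeq 500. Input amount, rRNA removal, priming, library kit, read format and sequencer all differed between the groups together, so their parts cannot be told apart. The replicates of a kind were libraries of purified RNA. Whether they came from the same RNA preparation is not stated, so their spread may be technical only.

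Most of the RNA of a cell is rRNA, which a total RNA method has to avoid or remove. NSRs are hexamers designed to leave out those that match rRNA, so that random priming continues on other RNAs without a poly(A) tail. Such RNAs include the mRNAs of replication-dependent histones, which end in a stem-loop, and small structured RNAs such as the 7SK, RNase P and RNase MRP RNAs, the small nuclear RNAs (snRNAs) of the spliceosome and the small nucleolar RNAs (snoRNAs) that guide rRNA modification.

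Each rdRNA-seq library held 7395211 to 7502411 estimated gene counts and each RamDA-seq library 5706348 to 5733653. Replicates lay closer together in rdRNA-seq, where log2(count + 1) correlated across genes with r between 0.979 and 0.982, than in RamDA-seq, with r between 0.737 and 0.743. The ES cell factors Pou5f1, Sox2 and Nanog were present in all 6 libraries, and Sox17 and Foxa2, factors of endoderm, were too low to be tested. Of 13573 genes with enough counts, edgeR's quasi-likelihood test called 2941 at a Benjamini-Hochberg adjusted p of 0.05, which was 21.7% of those tested. RamDA-seq was higher in 1382 (10.2%) and lower in 1559 (11.5%), and the median log2 fold over all genes was -0.01. All folds below are RamDA-seq over rdRNA-seq after TMM scaling unless they are said to be shares. Scaling to library totals alone moved the median gene by -0.29 on the log2 scale and gave 816 higher and 2520 lower genes. The count of calls depended on which kind of library was left out. Without any 1 of the 3 it was 1269, 1308 or 1288, while without 1 RamDA-seq library it was 4255, 4311 or 4263.

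The composition of the libraries differed most in rRNA and in the small RNAs. The 4 gene models of the nuclear rRNA locus on chromosome 17 took 22.8, 22.8 and 22.4% of the counts in the 3 RamDA-seq libraries and 5.92, 6.73 and 5.75% in the 3 rdRNA-seq libraries. The 2 mitochondrial rRNAs took 4.03, 4.41 and 4.00% against 0.525, 0.521 and 0.518%. Both classes stood higher in every RamDA-seq library, by 3.70-fold and 7.96-fold. Small RNAs stood lower. snoRNAs took 0.0132, 0.0145 and 0.0128% in RamDA-seq and 1.44, 1.88 and 1.08% in rdRNA-seq. snRNAs took 0.0174, 0.0169 and 0.0157% against 0.782, 0.836 and 0.598%. Ribozymes, the RNAs of RNase P and RNase MRP, took 0.0412, 0.0376 and 0.0374% against 3.45, 3.48 and 2.72%, and miscellaneous RNAs, among them 7SK and the signal recognition particle RNA, took 0.411, 0.415 and 0.387% against 6.54, 6.39 and 5.01%. None of these 4 classes overlapped between the groups. In rdRNA-seq the snoRNAs were the most variable of the 4, with replicate 2 at 1.88% and replicate 3 at 1.08%.

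Nuclear protein-coding genes took 64.2% ± 0.473 of RamDA-seq counts and 69.9% ± 2.13 of rdRNA-seq counts (SD, n = 3). Long intergenic noncoding RNAs (lincRNAs) took 0.965% against 1.91%, pseudogenes 3.31% against 4.79% and mitochondrial tRNAs 0.0123% against 0.0280%. Of 19 classes, 3 were higher in every RamDA-seq library and 15 lower. Only miRNA genes overlapped, at 1.59, 1.59 and 1.58% against 2.02, 2.20 and 1.58% of counts. As a share of TPM of the merged models they took 32.5% against 1.07%, 30.4-fold more in RamDA-seq with no overlap. Most counts of the class lay in a single model in each group. Mir6236, which carries rRNA sequence, had 85195, 84976 and 85112 estimated counts in RamDA-seq and 249, 216 and 255 in rdRNA-seq. AC099934.1, a model within the signal recognition particle RNA, had 0, 0 and 2.03 against 137659, 149871 and 103838. The class counts thus say little on other miRNA genes, and the part of Mir6236 in the TPM share was not tested. With 3 libraries against 3, the smallest p of the two-sided exact permutation test is 0.10, which 18 classes reached (0.106 adjusted over the 19 classes, with miRNA genes at p = 0.40), so no class could pass 0.05. These are shares of a whole, and they say nothing on amounts. With the rRNA genes out of the total, nuclear protein-coding genes stood 12.8 percentage points higher in RamDA-seq. Antisense RNAs stood 0.0290 and mitochondrial mRNAs 0.166 points higher, where all 3 classes had been lower, and 13 classes did not overlap. Lars2 and AA474408, whose reads cannot be told apart from rRNA (below), stayed in the protein-coding class. Lars2 alone had 314985, 313886 and 308767 estimated counts in RamDA-seq against 6157, 6400 and 5941 in rdRNA-seq. The part of both genes in the 12.8 points was not tested. Strand was not used in the counting, so antisense RNAs cannot be told apart from their partner genes.

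**Figure D1:**
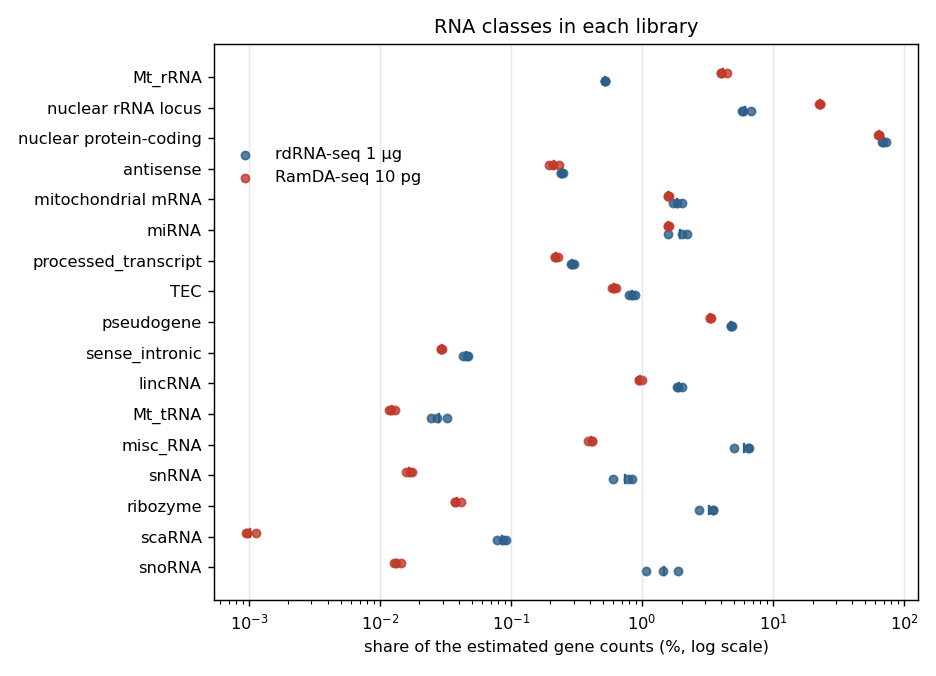
Share of the gene counts (percent, log axis) taken by each RNA class in each of the 3 RamDA-seq libraries from 10 pg and the 3 rdRNA-seq libraries from 1 µg, 1 point a library and a tick at the mean, for the 17 classes above 0.02% (both means summed). The nuclear rRNA locus and the mitochondrial rRNAs lie to the right in RamDA-seq, and ribozymes, snRNAs, snoRNAs and small Cajal body RNAs lie to the left by 1 or more decades.

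The rRNA signal was not even over the locus. Rn18s-rs5 (chr17:39846353-39848827), a model on the minus strand whose sequence is antisense to 18S rRNA, with a longest exact stretch of 722 bases, had 119234, 126017 and 116958 CPM (counts scaled with TMM to a library of 1000000) in RamDA-seq and 6353, 7458 and 5546 in rdRNA-seq, a log2 fold of 4.23 ± 0.11 (edgeR's adjusted p = 2.7e-06). Gm26917 (chr17:39843013-39846341), which lies beside it and shares no stretch of 25 bases with the mature rRNAs, had 110156, 106382 and 105023 against 41477, 47709.6 and 39160.3 CPM, a log2 fold of 1.33 ± 0.07. Both were higher in RamDA-seq with no overlap, and the log2 fold of Rn18s-rs5 was the larger. AY036118, on the same strand and also antisense to 18S rRNA, and Gm42418, on the opposite strand and in the sense of 18S rRNA, overlap Rn18s-rs5, and as strand was not used their reads cannot be told apart. Summed, the 3 models that match 18S rRNA on either strand had 144231 CPM in RamDA-seq and 13175 in rdRNA-seq, 10.9-fold more. Among the 408 first-strand NSRs, none pairs with the 18S or the 28S rRNA sequence exactly, while 5 sites were found in the mitochondrial 12S rRNA and 1 in the 16S rRNA. Another 14 sites were found in the 5.8S rRNA and 6 in the 5S rRNA. Per 100 bases these 4 rRNAs had 0.526, 0.0634, 9.21 and 5.26 sites, in the same order. mt-Rnr1, the 12S rRNA, had 18294, 19448 and 17659.7 CPM in RamDA-seq against 560.3, 590.5 and 524 in rdRNA-seq, a log2 fold of 5.05 ± 0.07. mt-Rnr2, the 16S rRNA, had 26801, 29569 and 26287 against 4249.9, 4277 and 4043 CPM, a log2 fold of 2.72 ± 0.05.

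Several genes that carry pieces of 28S rRNA sequence were higher in RamDA-seq. Lars2, which encodes the mitochondrial leucyl-tRNA synthetase, had 61704, 61142 and 59129 CPM in RamDA-seq and 752, 809 and 703 in rdRNA-seq, a log2 fold of 6.33 ± 0.06 (edgeR's adjusted p = 6.1e-08). A transcript of the Lars2 gene (GENCODE vM21, GRCm38) holds a stretch of 159 bases identical to 28S rRNA, and 385 of its bases lie in 25-base stretches shared with it. AA474408 shares 157 bases in this way, with a longest stretch of 43, and had 8928, 9187 and 8986 against 426, 522 and 468 CPM, a log2 fold of 4.26 ± 0.08. Mir6236, annotated as a miRNA gene on chromosome 9, has a stretch of 52 bases and had 16689, 16552 and 16299 against 30.4, 27.3 and 30.2 CPM, a log2 fold of 9.14 ± 0.06. In all 3 the RamDA-seq libraries lay above every rdRNA-seq library, and the counts cannot tell reads of these genes from reads of 28S rRNA. Their sequences are shown because they hold the stretches that cannot be told apart from rRNA: the letters, all in capitals, are 30 bases that match 28S rRNA exactly, at bases 3235 to 3264 of the Lars2 transcript (chromosome 9), 1463 to 1492 of AA474408 (chromosome 7) and 12 to 41 of Mir6236, 5′ to 3′.
Lars2: TTTTTGATCCTTCGATGTCGGCTCTTCCTA
AA474408: CAAGGTGAACAGCCTCTGGCATGTTGGAAC
Mir6236: GCCGAATCAACTAGCCCTGAAAATGGATGG

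Small structured RNAs were lower in RamDA-seq almost throughout. Of 16 listed RNAs made by RNA polymerase III or similar in size and structure, 11 were tested and all 11 were lower, with a median log2 fold of -5.53 against -0.01 over all genes (10 of them without any 1 rdRNA-seq library). A fitted fold of a gene listed at 0 depends on the prior count, and with the 2 such RNAs set to a floor of 3 counts per library the median was -4.64. Together the list took 0.439, 0.439 and 0.413% of RamDA-seq counts and 9.98, 9.85 and 7.71% of rdRNA-seq counts. Rn7sk, the 7SK RNA that holds the elongation factor P-TEFb inactive, had 982, 928 and 898 CPM against 14955, 15017 and 10776, a log2 fold of -3.86 ± 0.14 (edgeR's adjusted p = 9.9e-06). Rmrp, the RNA of RNase MRP, had 234, 206 and 209 against 10956, 10928 and 8168 CPM, a log2 fold of -5.53 ± 0.15. Rpph1, the RNA of RNase P, which trims tRNA precursors, had 216, 201 and 191 against 20499.5, 21369 and 15714 CPM, a log2 fold of -6.57 ± 0.15. Terc, the template RNA of telomerase, had 0.784, 1.75 and 1.15 against 146, 158 and 114 CPM, a log2 fold of -6.80 ± 0.28. The 7SL RNA of the signal recognition particle is annotated as identical copies, and Rn7s1, Rn7s2 and a miRNA model within them summed to 3406 CPM against 56641, 16.6-fold lower. In rdRNA-seq, replicate 3 was the lowest of the 3 for each of these RNAs, and it was still above all RamDA-seq libraries.

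NSR sites, exact matches of the transcript to the reverse complement of a first-strand NSR, stood at a median of 7.67 per 100 bases in the 11 tested RNAs of the list and 7.83 in 9306 protein-coding transcripts, where 5% had under 6.49 and 5% over 9.27. In snRNAs the median was 12.1 (44 genes), in C/D box snoRNAs 9.09 (18) and in H/ACA box snoRNAs 9.77 (29). The 3 windows of 30 bases are shown to set such sites beside the values of these RNAs, with the bases that pair with an NSR in capitals. Each is the window with the most such sites in its RNA, so it is not typical of the whole RNA. They lie at bases 21 to 50 of Rn7sk (chromosome 9), 203 to 232 of Rmrp (chromosome 4) and 24 to 53 of Rpph1 (chromosome 14) (GENCODE vM21, GRCm38, 5′ to 3′ on the RNA's strand).
Rn7sk: TGCGACATCTGTCACcccattgatCGCCAG
Rmrp: GCTCACATAGTGACGCAggcaGTGCGACct
Rpph1: GCCACGTGCTGAgtgcgTGTCACTcttcgg

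Nuclear small RNAs followed the same direction. Of 44 spliceosomal and other snRNA genes tested, 41 were lower and none higher, with a median log2 fold of -7.21, or -6.45 with the 12 genes listed at 0 in RamDA-seq at their floor (37 to 39 lower without 1 rdRNA-seq library). Rnu1a1, a U1 snRNA that pairs with the 5′ splice site, had 2.35, 2.73 and 0.766 CPM in RamDA-seq against 319, 334 and 218 in rdRNA-seq, and the 4 U1 genes summed to 4.40 against 498 CPM, 113-fold lower. Rnu12, the U12 snRNA of the minor spliceosome, was listed at 0 in RamDA-seq and stood at 20.5, 16.6 and 9.94 CPM in rdRNA-seq, at least 32.7-fold higher there with a floor of 3 counts per library. The U3 snoRNA of pre-rRNA cleavage, over its 5 gene copies, had 2.60 CPM against 10143, a 3897-fold difference and the widest among these sums. All 18 C/D box snoRNAs tested were lower, with a median of -5.79 (-3.92 with the 4 at 0 at their floor), but without 1 rdRNA-seq library between 8 and 11 were. H/ACA box snoRNAs were lower in 25 of 29 (20 to 21 without 1 rdRNA-seq library) and small Cajal body RNAs in 11 of 13 (9), with medians of -5.32 and -5.68 (-5.10 and -5.17 with the genes at 0 at their floor). The 34 tested rRNA genes outside the locus were all lower, but only 2 of them without 1 rdRNA-seq library. Their median and their highest log2 fold were both -6.53. Many thus held the same value, and they are not 34 separate measurements. None of the nuclear small RNAs in these lists was higher.

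Replication-dependent histone mRNAs were the protein-coding group that differed most. Of 66 tested, 59 were lower and 3 higher in RamDA-seq, with a median log2 fold of -4.36, or -4.30 with the 4 listed at 0 at their floor (56 to 60 lower with any 1 library left out). The genes took 0.107, 0.106 and 0.102% of RamDA-seq counts and 1.97, 2.04 and 1.98% of rdRNA-seq counts, and their TMM-scaled CPM summed to 1165 against 18173, 15.6-fold lower. In 3 libraries from poly(A)-selected RNA of the same cells (paRNA-seq, 1 µg) they took 0.0053% to 0.0056%, and in 4 C1-RamDA-seq libraries from 10 pg 0.181% to 0.207%. RamDA-seq thus stood between the rRNA-depleted and the poly(A)-selected libraries.

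By histone, Hist1h4f, an H4 gene, had 4.11, 3.51 and 3.83 CPM in RamDA-seq and 340.1, 395 and 254 in rdRNA-seq, a log2 fold of -6.43 ± 0.22 (edgeR's adjusted p = 8.4e-06). Hist1h2bf, an H2B gene, had 17.6, 11.9 and 11.7 against 471, 468 and 456 CPM, a log2 fold of -5.08 ± 0.17. Hist1h3b, an H3 gene, had 6.66, 7.01 and 9.19 against 244, 248 and 251 CPM, a log2 fold of -5.02 ± 0.14. Hist1h1c, a linker histone gene, had a log2 fold of -4.90 ± 0.15. The groups were far apart in all 4 genes. Near-identical copies are uncertain one by one: Hist2h2aa2 had 0, 0 and 6.32 against 553, 616 and 548 CPM while its copy Hist2h2aa1 was called higher, and the pair summed to 26.8 against 573 CPM. The other higher calls were Hist1h4n and Hist1h2br, and all 3 were lost without rdRNA-seq replicate 3. Hist1h4n summed with Hist1h4m to 25.7 against 693 CPM. A match to the stem-loop, GG and 4 bases of any kind, a loop of 4 bases beginning with TT and the reverse complement of the first 6 bases, within the last 200 bases of the RNA strand, was found in 18 of 46 histone transcripts with a sequence (39.1%) and in 3 of 9260 other protein-coding transcripts (0.0324%). The stem-loop is shown for 4 genes, with its stem in capitals, at bases 336 to 365, 410 to 439, 547 to 576 and 471 to 500 of the transcripts, the first 3 from genes on chromosome 13 and Hist2h2aa2 on chromosome 3 (GENCODE vM21, GRCm38).
Hist1h4f: tctcaaaGGCCCTtttcAGGGCCacccact
Hist1h2bf: acccaaaGGCTCTtttcAGAGCCacctacc
Hist1h3b: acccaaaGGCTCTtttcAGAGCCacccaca
Hist2h2aa2: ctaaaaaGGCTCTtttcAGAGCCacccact

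Histone variants whose mRNAs are polyadenylated had a median nearer to 0. Of 11 replication-independent histones, 4 were lower and 2 higher, with a median log2 fold of -0.23 (0.13 from TPM of the merged models). H2afz, which encodes H2A.Z, had a log2 fold of -1.02 ± 0.08, and H2afx, whose mRNA can also end in a stem-loop, -2.16 ± 0.09. H3f3b, one of the genes of H3.3, had -0.79 ± 0.06, while H3f3a, the other, had 0.43 ± 0.06 and was not called when libraries were scaled to their totals alone. No test of the difference between both histone groups was run.

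**Figure D2:**
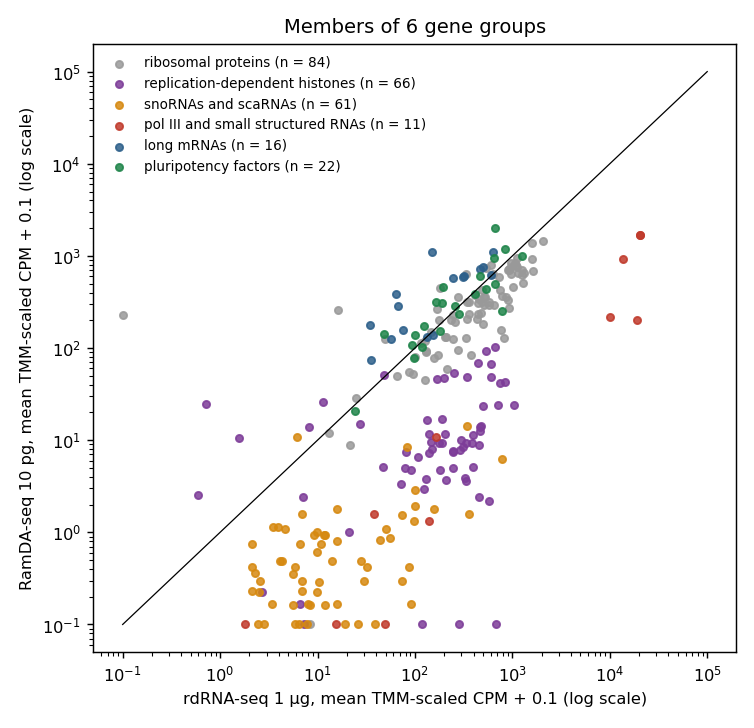
Mean TMM-scaled CPM + 0.1 of RamDA-seq from 10 pg (vertical, log axis) against that of rdRNA-seq from 1 µg (horizontal, log axis), 1 point a tested gene of 6 groups, with a line at equal values; points at the floor are genes at 0. Small structured RNAs, snoRNAs and most replication-dependent histones lie far below the line, ribosomal proteins close below it and most long mRNAs above it.

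Among other protein-coding genes, the fold followed transcript length. Without the replication-dependent histones, genes whose transcript of highest count had up to 400 bases had a median log2 fold of -0.61 (33 of 71 lower, 4 higher). It was -0.54 at 400 to 600 bases and -0.49 at 600 to 1000. At 1 to 2 kb it was -0.21 (297 of 2432 lower, 113 higher), at 2 to 4 kb 0.05 (292 of 4620 lower, 428 higher) and at 4 to 8 kb 0.28 (107 of 2917 lower, 542 higher). Above 8 kb it was 0.46, with 135 of 523 higher and 15 lower. The medians rose with each length bin. With scaling to library totals alone the medians above 2 kb were -0.24, -0.01 and 0.17, so the sign depends on the scaling and the order does not. The fold also moved with base composition, here over all protein-coding genes with a sequence, replication-dependent histones among them. The median was -0.20 at a GC content of up to 40% (517 genes) and 0.19 at 55 to 60% (1921 genes). Above 65% it was -0.85 (45 genes, with a median length of 1299 bases). Among the genes of 2 to 4 kb it was -0.17 (190 genes), 0.35 (782) and -0.36 (12) in the same bins. The part of histones and length in the value above 65% was not tested. The libraries also differed in read format, and the parts of base composition and read format in the length trend were not tested.

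**Figure D3:**
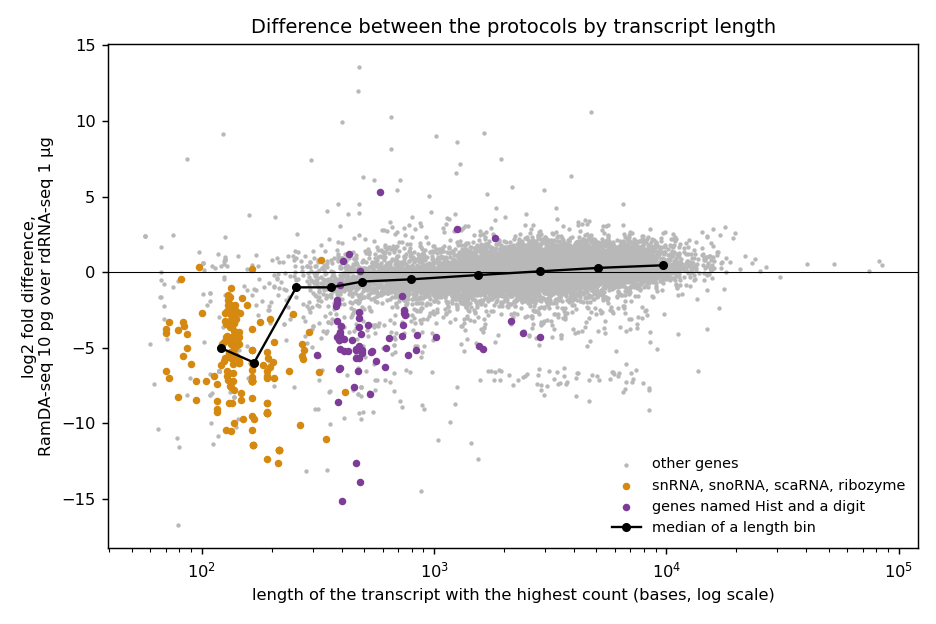
Log2 fold of RamDA-seq from 10 pg over rdRNA-seq from 1 µg against the length of the gene's transcript of highest count (bases, log axis), 1 point a tested gene, with the median of each length bin over all tested genes as black points. The medians are -5.02 at up to 150 bases, lowest at -5.98 from 150 to 200 bases, and 0.46 above 8 kb, and the cloud near -7 holds genes listed at 0 in all RamDA-seq libraries, whose fitted folds depend on the prior count.

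Of 16 long mRNAs, 11 were higher in RamDA-seq and none lower, with a median of 1.00 (9 to 12 higher with any 1 library left out). Ubr4, a ubiquitin ligase of the N-degron pathway, had 1098, 1163 and 1013 CPM in RamDA-seq and 145, 153 and 154 in rdRNA-seq, a log2 fold of 2.86 ± 0.07 (edgeR's adjusted p = 2.5e-06). Kmt2d, a methyltransferase of histone H3 at enhancers, had 448, 332 and 379 against 60.7, 63.4 and 67.1 CPM, a log2 fold of 2.60 ± 0.13. Trrap, the scaffold of histone acetyltransferase complexes, had 327, 275 and 264 against 65.2, 67.1 and 66.2 CPM, a log2 fold of 2.13 ± 0.10. In these 3 genes the lowest RamDA-seq library was above the highest rdRNA-seq library. Lrp1, an endocytic receptor, varied between RamDA-seq replicates, with 203, 87.1 and 244 CPM against 36.3, 34.9 and 33.5, and was called at a log2 fold of 2.35 ± 0.36. Syne2, which links the nucleus to actin, had 110.3, 35.1 and 79.3 CPM in RamDA-seq and was not called (edgeR's adjusted p = 0.094). Herc1, Ahnak, Prkdc and Dst were not called either.

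Cytoplasmic ribosomal protein mRNAs, which are short and abundant, were lower in RamDA-seq in 59 of 84 tested and higher in 8, with a median log2 fold of -0.55 (48 to 50 lower without 1 rdRNA-seq library). Their median length was 613 bases. Protein-coding genes with a mean count of at least 300, these among them, were lower in 41 of 82 at 400 to 600 bases and in 97 of 165 at 600 to 1000. The medians there were -0.47 and -0.44. As these bins hold the ribosomal protein genes themselves, they are not a separate group to compare with. They took 2.81, 2.75 and 2.85% of RamDA-seq counts against 5.01, 4.97 and 5.37% of rdRNA-seq counts, with no overlap. Many have processed pseudogenes of near-identical sequence, and single genes are uncertain. Rps12, a protein of the small subunit, was listed at 0 in all rdRNA-seq libraries and had 262, 215 and 206 CPM in RamDA-seq. Its 23 gene and pseudogene copies summed to 637 CPM in RamDA-seq and 388 in rdRNA-seq, 1.64-fold, where the gene alone was at least 509-fold higher. Rpl14 had a log2 fold of -0.84 ± 0.06 and its pseudogene Rpl14-ps1 one of 6.07 ± 0.30, but together they had 670 against 757 CPM. Over all ribosomal protein genes the sum was 31109.8 against 46583 CPM, a log2 ratio of -0.58, and over 270 of their pseudogenes 6107 against 9185 CPM, one of -0.59. Genes with over 50% of their 25-base stretches shared with other genes were lower in 365 of 871, and genes sharing none in 596 of 5438. Their median lengths were 620 and 2288 bases, so shared sequence and length cannot be told apart here.

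The mRNAs of the mitochondrial genome, which encode subunits of the respiratory chain, were lower in 4 of 13 and higher in 3, with a median log2 fold of -0.21 that was 0.01 from TPM of the merged models. mt-Co1, of cytochrome c oxidase, had a log2 fold of -0.25 ± 0.03, mt-Cytb, of complex III, -0.33 ± 0.05 and mt-Nd5, of complex I, 0.64 ± 0.06. The largest, mt-Atp6 of the ATP synthase, had 1495, 1664 and 1619 CPM in RamDA-seq and 573, 368 and 746 in rdRNA-seq. Its nuclear copy on chromosome 1, Gm10925, shares 97.1% of its 25-base stretches with it and had 101, 69.9 and 69.3 against 1700.0, 1791 and 1649.6 CPM. The gene was higher and the copy lower, and their sum was 1673 against 2276 CPM, a log2 ratio of -0.44. Gm28439, a copy of mt-Nd4 that shares 100% of its 25-base stretches with it, had a rounded count of 0 in every RamDA-seq library. In rdRNA-seq it had 392, 439 and 411 CPM. The sum of mt-Nd4 and Gm28439 was 1470 CPM in RamDA-seq against 1724 in rdRNA-seq, a log2 ratio of -0.23.

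Pluripotency factors moved in both directions. Of 22 tested, 10 were higher and 5 lower, with a median log2 fold of 0.18, and with scaling to library totals alone 5 were higher and 9 lower, with a median of -0.10. Pou5f1, the core factor Oct4, had 225, 273 and 254 CPM in RamDA-seq and 770.4, 798 and 764 in rdRNA-seq, a log2 fold of -1.63 ± 0.08 (edgeR's adjusted p = 3.7e-05). Utf1, a chromatin protein of ES cells, had 123, 146 and 152 against 48.5, 44.5 and 49.9 CPM, a log2 fold of 1.56 ± 0.12. Trim28, a corepressor that silences retroelements, had 2074, 2012 and 1913 against 643, 679 and 647 CPM, a log2 fold of 1.61 ± 0.05. The groups did not overlap in these 3 genes. Nanog, with 366, 392 and 393 against 415, 409 and 409 CPM, and Sox2, with 241, 249 and 209 against 288, 291 and 275, were not called (edgeR's adjusted p = 0.31 and 0.058). Of the 10 ES cell markers, 5 were lower and 2 higher, with a median of -0.28 that was 0.23 from TPM of the merged models. Of 7 tested primitive endoderm markers, 3 were higher: Lama1, a laminin chain of the basement membrane, with 643, 725 and 652 against 164, 161 and 159 CPM and a log2 fold of 2.06 ± 0.07, Col4a1, a collagen IV chain, with 1.06 ± 0.13, and Gata6, the endoderm factor, with 1.19 ± 0.15. Gata4, which Gata6 induces in endoderm, had 3.33, 7.60 and 2.87 against 3.05, 2.02 and 2.84 CPM and was not called. The 9 endoderm genes took 0.0806, 0.0866 and 0.0811% of RamDA-seq counts against 0.0298, 0.0298 and 0.0306% of rdRNA-seq counts. Lama1 held most of these counts. The 7 tested markers had a median transcript length of 3793 bases, against 2661 over all genes tested, and the part of length was not tested. Reads of the Gata6 fusion gene that 5G6GR cells carry were not separated from those of Gata6.

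Of 17 long noncoding RNAs tested, none was higher and 3 were lower. Malat1, a nuclear RNA of speckles, had 1602, 1717 and 1635 CPM in RamDA-seq and 4025, 4032 and 4088 in rdRNA-seq, a log2 fold of -1.29 ± 0.04 (edgeR's adjusted p = 5.6e-06). Rian and Mirg, noncoding RNAs of the imprinted Dlk1-Dio3 region, had -0.61 ± 0.09 and -0.87 ± 0.22, and the call of Mirg was lost without any 1 rdRNA-seq library. Neat1, the scaffold of paraspeckles, had 101, 86.1 and 23.2 against 65.7, 63.3 and 56.5 CPM and was not called (edgeR's adjusted p = 0.85). RamDA-seq replicate 3 was the low library for Neat1. Among the snoRNA host genes, whose introns carry snoRNAs, 7 of 14 were lower and none higher (2 lower without 1 rdRNA-seq library), with Gas5 at -0.87 ± 0.11 and Snhg8 at -1.39 ± 0.20. Of 14 mRNAs often used as references in qPCR, 4 were higher and 3 lower (1 and 5 with scaling to library totals alone), with Ywhaz, a 14-3-3 protein, at 0.96 ± 0.10 and Eef1b2, an elongation factor subunit, at -0.74 ± 0.06. The 6 immediate early genes tested were not called.

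**Figure D4:**
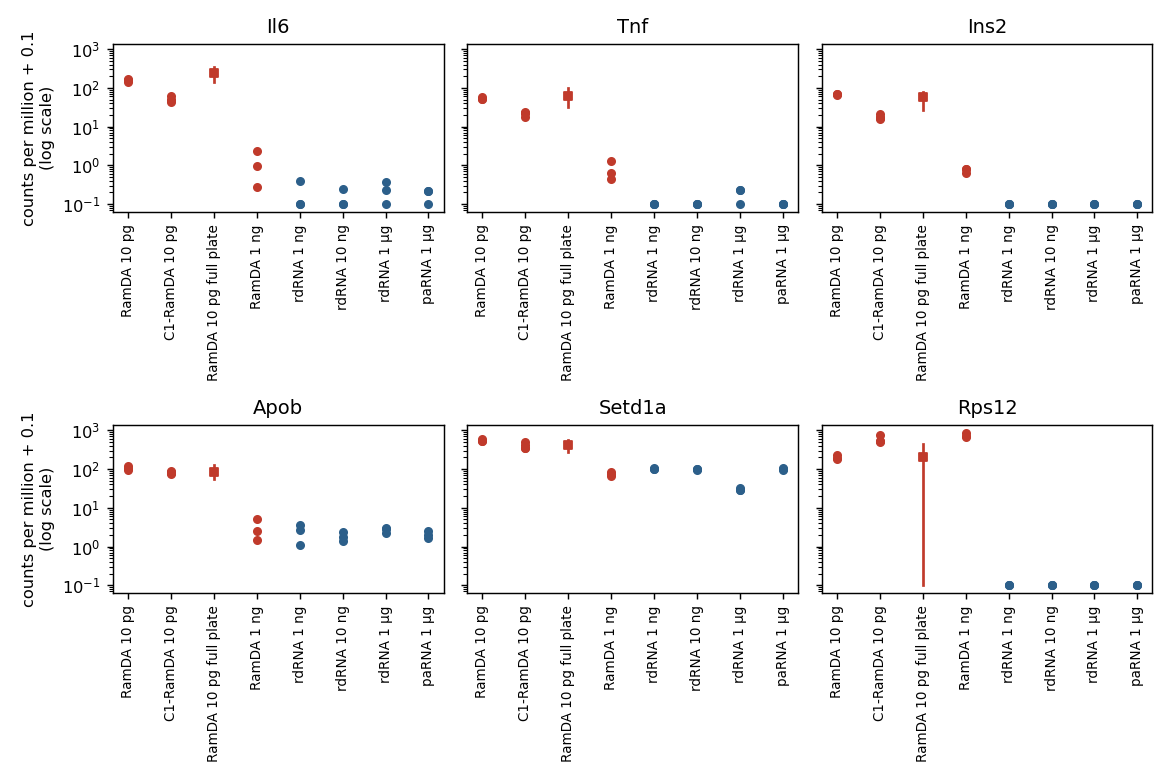
CPM without TMM scaling + 0.1 (log axis) of 6 genes in each group of libraries, 1 point a library; for the full plate the square is the median and the line runs from the lowest to the highest of 96 libraries. Il6, Tnf and Ins2 lie above 15 in every RamDA-seq or C1-RamDA-seq library from 10 pg and below 3 from 1 ng and in rdRNA-seq, while Rps12 is high in RamDA-seq at both inputs (down to 0 in the full plate) and listed at 0 in rdRNA-seq and paRNA-seq.

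Some genes were high in RamDA-seq from 10 pg and near 0 in rdRNA-seq. Il6, a cytokine of inflammation, had 162, 165 and 145 CPM, here without TMM scaling so that all groups can be set side by side, in RamDA-seq from 10 pg and 0, 0.270 and 0.134 in rdRNA-seq, a log2 fold of 10.28 ± 0.33 (edgeR's adjusted p = 5.8e-06). It had 3 counts in all rdRNA-seq libraries together, and the ratio of the summed shares was 1173, with an exact 95% counting interval of 401 to 5692. In 4 C1-RamDA-seq libraries from 10 pg it had 42.2 to 61.6, and over 96 further RamDA-seq libraries of 10 pg, which are shallower and from a separate table, it ran from 146 to 340, with a median of 237. In 3 RamDA-seq libraries from 1 ng it had 0.175, 2.22 and 0.859. Tnf, the tumour necrosis factor, had 52.7, 59.1 and 50.4 in RamDA-seq from 10 pg, 17.8 to 23.2 in C1-RamDA-seq and 0.525, 1.20 and 0.344 from 1 ng. Ins2, an insulin gene, had 70.1, 69.4 and 65.2, 15.8 to 21.2 and 0.701, 0.683 and 0.515 in the same 3 groups and was listed at 0 in rdRNA-seq, at least 169-fold lower with a floor of 3 counts per library. Apob, the main apolipoprotein of LDL, had 92.9, 108 and 119 from 10 pg and 1.40, 2.39 and 5.15 from 1 ng. All 4 genes were thus high in every library from 10 pg and low in the libraries of the same method from 1 ng. Setd1a, a histone methyltransferase gene chosen after its values were seen, had 593, 533 and 536, against 28.7, 32.3 and 28.8 in rdRNA-seq, a log2 fold of 4.49 ± 0.10. From the TPM of the merged transcript models, however, its log2 fold was 0.12 and it was not called.

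In all, 15 genes had under 3 counts in each rdRNA-seq library and at least 10 in each RamDA-seq library, among them Rps12, Il6, Ins2, Tnf, Ins1, Igkv1-110, Cd3g, Postn and Tac1. The reverse held for 318 genes, of which 117 were protein-coding, 58 pseudogenes, 47 snoRNAs and 34 the rRNA genes outside the locus. In 144 of the 318 the transcript of highest count had 400 bases or less. Of the 13573 genes tested, 207 had up to 150 bases and 66 had 150 to 200. Another 95 had 200 to 300 and 201 had 300 to 400. The 34 rRNA genes among the 318 are not 34 separate measurements, as above. Among tested genes, 168 were listed at a rounded count of 0 in all 3 RamDA-seq libraries. Their median mean count was 11.3. Estimated counts of exactly 0 in all 3 RamDA-seq libraries, before rounding, beside at least 100 counts on average in rdRNA-seq were found for 22 genes. Hist1h4m was at least 1424-fold higher in rdRNA-seq, Hist1h2ao at least 586-fold and Hist1h2ad at least 247-fold. Histone genes such as these have near-identical copies, as above. Gm28967, an intronic RNA on chromosome 6, was at least 351-fold higher, and Gm15210, a pseudogene of Impdh2, at least 207-fold, although Impdh2 and Gm15210 together had 423 against 409 CPM. Gm28967 shares 100% of its 25-base stretches with other tested genes, so its value alone is uncertain too.

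At a minimum of 10 counts, 12346, 12328 and 12320 genes were detected in the RamDA-seq libraries and 13960, 13919 and 14112 in the rdRNA-seq libraries, 1666 fewer on average (p = 0.10, exact permutation test, two-sided, the smallest p of 3 against 3). With counts scaled to the smallest library total the difference was 910 genes. In all 3 libraries of a kind, 10161 genes were detected by RamDA-seq and 13081 by rdRNA-seq, and 9974 by both, which was 98.2% of the first and 76.2% of the second. The loss lay at low counts in protein-coding genes. Of those with a mean count of 10 to 30 in rdRNA-seq, a RamDA-seq library detected 43.8%, of those with 30 to 100 83.3%, and of those with 100 to 300 98.8%. Other classes stayed lower at high counts as well, with 78.9% detected at 100 to 300 and 76.6% at 300 to 1000, where protein-coding genes reached 99.9%. At 30 to 100 counts, 61.4% of genes of any class were detected in all 3 RamDA-seq libraries.

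**Figure D5:**
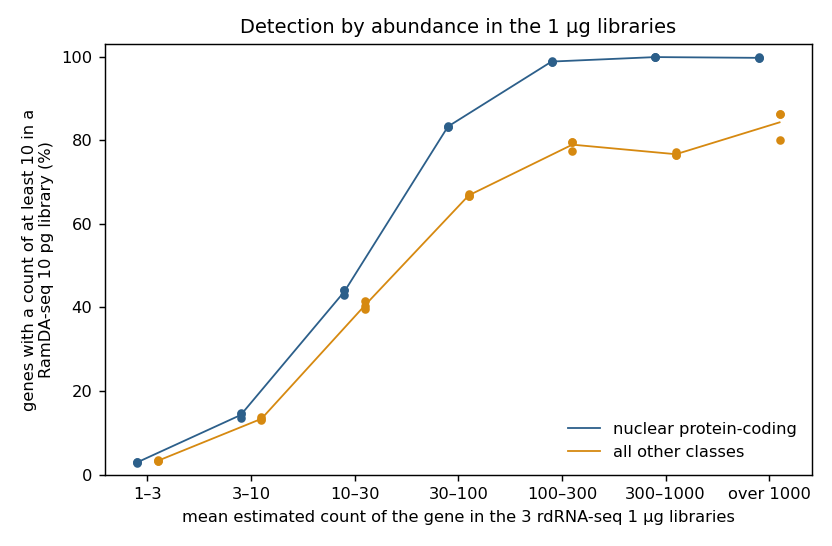
Percent of genes with at least 10 counts in a RamDA-seq library from 10 pg, averaged over the 3 libraries, by the gene's mean count in rdRNA-seq from 1 µg, for protein-coding genes and for the other classes. Protein-coding genes rise from 43.8% at 10 to 30 counts to 98.8% at 100 to 300, and the other classes stay at 78.9% there.

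Within protein-coding genes, transcripts annotated as retained introns took 4.54, 4.56 and 4.60% of RamDA-seq counts and 5.04, 5.07 and 5.08% of rdRNA-seq counts, 0.495 percentage points less and with no overlap (p = 0.10, exact permutation test, two-sided). Transcripts of nonsense-mediated decay took 2.45% against 2.81% and processed transcripts 3.05% against 3.81%. The order of all 3 kinds turned with the unit, with no overlap in either. As a share of TPM of the merged models, retained introns took 10.3% ± 0.059 in RamDA-seq and 8.90% ± 0.206 in rdRNA-seq (SD, n = 3), nonsense-mediated decay transcripts 3.64% against 2.76% and processed transcripts 10.3% against 9.13%. Without Lars2, AA474408, histones and mitochondrial genes the difference of retained introns in counts was -0.163 points.

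To set the differences beside a pair of equal input, RamDA-seq from 1 ng was compared with rdRNA-seq from 1 ng of RNA, made with a KAPA RiboErase kit (3 libraries each, sequenced on the NextSeq). These libraries are not those of the comparison above, and rRNA was removed by another chemistry. Of 14759 genes tested, 5612 were called (38%), with 2691 higher (18.2%) and 2921 lower (19.8%) in RamDA-seq. Of 13099 genes tested at both inputs, 859 were lower in both, which was 63.5% of those lower at 10 pg and 30.1% of those lower at 1 ng, and 494 were higher in both, 36.3% and 20.4% of the higher genes. Another 238 genes were higher at 10 pg and lower at 1 ng, and 81 the reverse. Replication-dependent histones were lower at 1 ng too, in 59 of 63 tested, with a median of -4.93, replication-independent histones in 7 of 11, with a median of -0.64, and ribosomal protein mRNAs in 69 of 84. Of 9 small structured RNAs tested at 1 ng, 6 were lower, with a median of -2.14 over the 9. Rn7sk, Rmrp and Rpph1 had log2 folds of -3.67, -4.56 and -5.66, while Rny3, a Y RNA, was higher at 3.84, and 2 were not called, among them Rprl3 at -0.12. The snRNAs did not keep their direction, with 7 of 30 higher, 4 lower and a median of -0.01 at 1 ng. The snoRNAs differed less, with 0.0349% of counts in RamDA-seq against 0.0719% in rdRNA-seq at 1 ng, 2.06-fold lower. Of 15 C/D box snoRNAs tested at 1 ng, 6 were lower and 2 higher, with a median of -0.94. Of 15 H/ACA box snoRNAs, 8 were lower and 3 higher, with a median of -0.89. Long mRNAs had 6 of 16 higher and 4 lower at 1 ng, with a median of 0.15, and the length medians of protein-coding genes without histones ran from -0.57 to 0.11. Ubr4 had a log2 fold of 0.51, and Kmt2d one of -0.23. Pou5f1 was lower at both inputs (-1.25 at 1 ng), while Utf1, Klf5, Tbx3 and Gata6, higher at 10 pg, had -1.28, -1.03, -0.93 and -0.52 at 1 ng. The nuclear rRNA locus took 11.4, 9.70 and 10.5% in RamDA-seq from 1 ng and 14.4, 15.6 and 13.9% in rdRNA-seq from 1 ng, the opposite order to that at 10 pg. Input and rdRNA-seq kit changed together between both pairs, so these differences between inputs were not tested.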

How the data were processed

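The authors removed adapters, took an equal number of reads per library and ran Sailfish, without use of strand, on GENCODE vM9 transcripts and ERCC spike-in sequences (GRCm38/mm10), and deposited estimated counts per transcript. The authors also deposited TPM, a length-scaled share, per transcript of a merged set of models, made with fewer reads, which served here as an alternative only. Counts of 115125 transcripts were summed to 47517 gene names (118 with several gene identifiers), left without ERCC sequences, which the 1 µg rdRNA-seq libraries did not receive, and rounded to whole numbers. In the tables, 16 columns of other methods were not used.

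Genes passing filterByExpr were tested with edgeR 4.0.16 in R 4.3.3 (glmQLFit and glmQLFTest, TMM scaling, group as the only term), with p-values adjusted by Benjamini-Hochberg over all genes tested. Errors after ± are standard errors for folds and SD elsewhere. Shares were compared by two-sided exact permutation tests. On simulated counts for the 10 pg comparison (13188 genes), the fit recovered 96 of 100 genes changed 2-fold, 100 of 100 changed 4-fold, and called 11 unchanged genes. The simulation gave both groups the same fixed dispersion and changed only genes of higher count. Real replicates were unequal, with r of 0.737 to 0.743 in RamDA-seq and 0.979 to 0.982 in rdRNA-seq. The simulation thus checks that the fit runs and gives no error rates for these data. Alternatives were DESeq2 1.42.0, limma 3.58.1 on log2(TPM + 1), other scalings and filters, a replicate block and leaving out each library.

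Named genes were the 12 largest called folds in each direction with a mean count of at least 100 and no overlap, up to 4 members of highest count per class, the gene lists and the rRNA locus models. The members, lists and rule were chosen with earlier results of these data known. Sequences came from GENCODE vM21 transcripts on the same build, which cover 82.7% of the tested genes. Reads carry no molecular identifiers, so counting intervals and floors (3 counts per library) cover counting error only. Depth per library was 5706348 to 7502411 gene counts at 10 pg and 1 µg. Where several genes share sequence, Sailfish may divide their reads unevenly.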

Additional observations from a re-analysis of the deposited data

Results flagged for a closer look

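In 6 RNA classes, every RamDA-seq library lay on one side of every rdRNA-seq library at 10 pg against 1 µg and on the other side at 1 ng against 1 ng. The share of snRNAs in RamDA-seq was 0.0226 times that in rdRNA-seq at 10 pg and 2.21 times at 1 ng. The share of rRNA genes outside the locus was 0.0488 times at 10 pg and 2.60 times at 1 ng. For the nuclear rRNA locus the ratios were 3.70 and 0.721, for mitochondrial mRNAs 0.849 and 1.38, for antisense RNAs 0.871 and 1.18, and for processed transcripts 0.755 and 1.15. With the rRNA genes left out of the total, the ratios at 10 pg were 1.08 for mitochondrial mRNAs, 1.11 for antisense RNAs and 0.963, with overlap, for processed transcripts, so the opposite order of these 3 classes did not hold there. The difference between the inputs was not tested, and it cannot be told apart from the change of rRNA-depletion and library kit in rdRNA-seq.

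Among the 4 C1-RamDA-seq libraries from 10 pg, replicate 4 lay apart from the others in 5 of 19 classes by Dixon's test. It had 16.8% of its counts in the nuclear rRNA locus, 0.479% in mitochondrial mRNAs, 1.08% in miscellaneous RNAs, 0.651% in miRNA genes and 0.0991% in ribozymes. Chance alone gives such a value in about 1 of 20 groups, and the 5 classes come from the same library. That library enters only the ranges given for C1-RamDA-seq.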

How the results depend on the processing

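Where a value below changed, the cause was not tested. The 2941 genes called at 10 pg became 1531 under a test against a log2 fold of 0.5 (glmTreat), and 1269 to 4311 with 1 library left out. Replicate numbers did not pair the libraries, as deviations of same-numbered libraries correlated with r of -0.01, -0.01 and 0.04 at 10 pg and -0.01, -0.06 and -0.07 at 1 ng. The fit with a replicate block called 1535 genes at 10 pg and 5264 at 1 ng. At 1 ng, 4767 to 5117 genes were called with 1 library left out, and with scaling to library totals 3525 higher and 2273 lower. DESeq2 called 3693 genes at 10 pg, and limma on TPM of the merged models 1430 higher and 875 lower. With TPM the log2 folds of Dppa5a, Rian and Eef1b2 turned to 0.0019, 0.078 and 0.058. Of the gene values at 10 pg, 1413 kept side and direction, 62 lost the call, 17 gained one and 3 turned; at 1 ng 770 kept, 19 lost and 12 gained.

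Of the class differences (RamDA-seq minus rdRNA-seq, percentage points), 120 kept within the spread, 22 moved beyond it and 7 turned. With the rRNA genes left out, antisense RNAs turned to 0.0290, mitochondrial mRNAs to 0.166 and nuclear protein-coding genes to 12.8. Lars2 and AA474408 stayed among the protein-coding genes there. As TPM, antisense RNAs turned to 0.0545, mitochondrial mRNAs to 0.115, processed transcripts to 0.0180 and pseudogenes to 11.9. With 1 library left out, 18 to 19 classes did not overlap. Retained introns turned to 1.39 points as TPM and moved to -0.163 without Lars2, AA474408, histones and mitochondrial genes, an alternative chosen after seeing the data. With 1 library left out they ranged from -0.512 to -0.481 points. The difference in detected genes was -2520 at a minimum of 5 counts, -1360 at 20 and -910 with counts scaled to the smallest total. It was -1705 to -1608 with 1 library left out. Of genes at 10 to 30 counts in rdRNA-seq, 42.5% on average reached 10 counts in a RamDA-seq library, where depth, input and method cannot be told apart.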
